A study of Homo sapiens with 8 samples.

Results

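The transcriptome described here is that of MDA-MB-231 cells transfected with a control siRNA, called siC in the labels. MDA-MB-231 is an established human breast cancer line of the triple-negative class, which lacks the receptors for estrogen and progesterone and carries no excess of the growth factor receptor ERBB2. The 2 siC libraries, siC-1 and siC-2, were taken from the 8 RNA-seq libraries of the series by their titles. The other 6 libraries came from cells given 1 of 3 siRNAs (siE1, siE2 and siE3, with 2 libraries each) against ERRα, the estrogen-related receptor α encoded by ESRRA, and they supply no value below except where a symbol without a count in siC is looked up in them. All cells of the series, controls included, had been transfected with INTERFERin and grown in DMEM with fetal calf serum, so that the levels are those of transfected cells and no untransfected cells enter. The labels do not say whether the 2 libraries came from separate cultures, and the spread between them may therefore be technical.

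Messenger RNA levels in a cell line reflect its cell of origin, its growth in culture and the changes its genome has undergone. Epithelial cells are held together by E-cadherin and filled with keratin filaments, whereas mesenchymal cells rely on vimentin, and breast lines that have passed through an epithelial-mesenchymal transition carry vimentin without E-cadherin. A dividing line also spends much of its RNA on ribosomes, protein folding, the cytoskeleton and glycolysis. Families of genes that serve a single tissue, such as odorant receptors, haemoglobin chains or hair keratins, give a view of the other end of the range.

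Levels are in CPM, the reads of a symbol per 1000000 reads counted over all symbols of the library. Pairs of values are those of siC-1 and siC-2, in that order. Because long transcripts collect more reads, genes are compared with each other only as CPM per kb of their principal transcript, the mean of both libraries. A gene is said to be at or above 1 CPM when it was so in both libraries. The libraries held 22047738 and 23624089 counts over 23368 symbols, so that 1 count was worth 0.0454 and 0.0423 CPM. A symbol with 0 counts may have been present at up to 3 counts, which is 0.136 CPM in siC-1 and 0.127 CPM in siC-2, or 0.0657 CPM over both (counting error only).

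At this depth 11974 of 23368 symbols (51.2%) were at or above 1 CPM and 7020 (30.0%) had no count in either library. Among the 18795 symbols matched to a protein-coding gene, 11317 (60.2%) were at or above 1 CPM and 4324 (23.0%) had no count. Counts of list members at or above 1 CPM are to be read against this 60.2%, and a share near it sets no list apart. The levels had 2 peaks, one at 0 counts and one between 10 and 100 CPM, where 6583 symbols lay. Fewer symbols lay between these peaks, with 1989 above 0 and up to 0.1 CPM, 2253 from there to 1 CPM and 2742 between 1 and 10 CPM. A further 2734 lay between 100 and 1000 CPM, and 47, all of them protein-coding, were higher. The class from 100 to 1000 CPM held 62.4% of the counts of siC-1 and 62.5% of those of siC-2, against 8.22% and 8.24% for the 47 highest symbols. The counts were spread over many genes, since 1254 symbols were needed to reach 50% of them and 5695 to reach 90%, and ACTB, the highest, took 0.53% and 0.511%. Over all symbols the median was 1.54 CPM, and over those at or above 1 CPM it was 38.5 CPM.

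**Figure D1:**
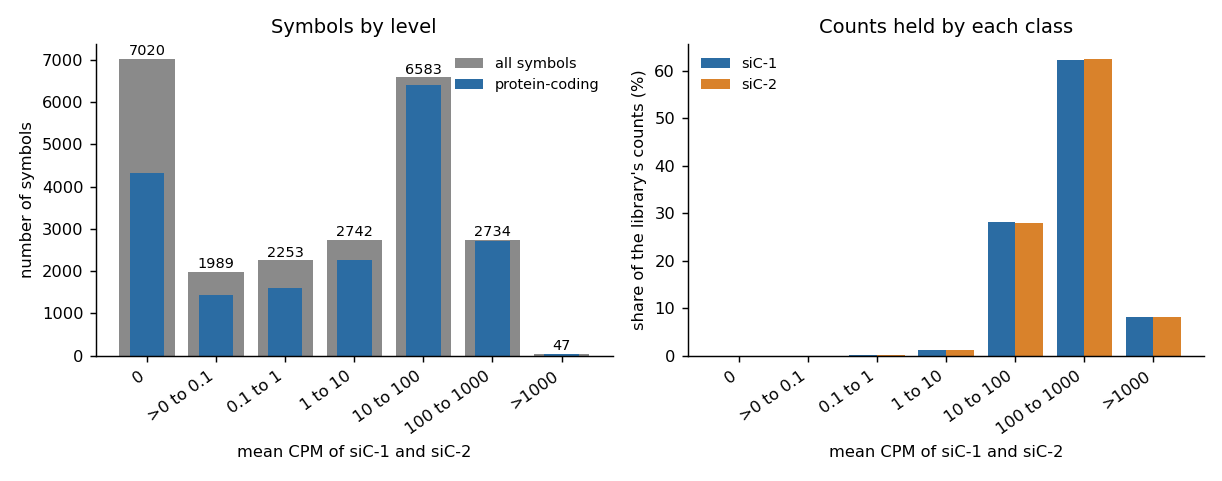
Number of symbols in each class of mean CPM (left, grey for all symbols and blue for those matched to a protein-coding gene) and share of each library's counts held by the class in percent (right, blue for siC-1 and orange for siC-2). The 7020 symbols at 0 and the 6583 between 10 and 100 CPM form the 2 peaks, while the 2734 symbols between 100 and 1000 CPM hold most of the counts.

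A count of 0 did not always stand for a silent gene. All 18 protein-coding symbols of the pseudoautosomal regions, which have copies on both sex chromosomes, had no count in any of the 8 libraries, among them CD99, the surface antigen, and SLC25A6, an adenine nucleotide carrier. EIF4A1, the RNA helicase of cap-dependent translation, had 0 and 0 counts, and the read-through symbol SENP3-EIF4A1 that spans it had 3 and 3. H3F3A, a replacement histone gene with processed copies elsewhere, had 0 and 0 counts while its partner H3F3B stood at 526 and 565 CPM. EIF3C, a subunit of an initiation factor that has a near-identical neighbour, had 2 and 1 counts. The table also holds 110 read-through symbols that join 218 other symbols, and 55 of these (25.2%) had no count, against 30.0% of all symbols and 23.0% of protein-coding symbols. No source used here says how reads shared by overlapping or duplicated genes were counted, and such genes are uncertain throughout. Of the 7020 symbols without a count, 1528 had at least 1 count in the other 6 libraries, but none reached 1 CPM there, with 0.502 CPM as the highest value.

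The highest levels belonged to the cytoskeleton, to chaperones, to glycolysis and to translation. Per length, cytoplasmic β-actin led with 2712 CPM per kb (ACTB, 5305 and 5114 CPM), followed by TMSB10, a thymosin that binds actin monomers, with 2523 CPM per kb (1251 and 1252 CPM). Vimentin (VIM) with 1673 CPM per kb and FTL, the ferritin light chain, with 1640 came next, and their order differed between the libraries. The heat shock protein HSP90AA1 reached 5043 and 4930 CPM and 1476 CPM per kb, and the constitutive HSPA8 3012 and 2917 CPM and 1204 CPM per kb. Actin partners stood beside actin itself, with profilin (PFN1) at 1387 CPM per kb and cofilin (CFL1) at 810.2. The glycolytic enzymes GAPDH, ENO1 and PKM2 followed with 1378, 950.2 and 796 CPM per kb. Of the 25 highest symbols by CPM per kb, 16 were also among the 25 highest by CPM. Ribosomal proteins, which are short, made up 7 of the first 25 and 1 of the second. SCD, the desaturase that makes monounsaturated fatty acids, was among the 25 highest by CPM with 1706 and 1719 CPM. AXL, a receptor tyrosine kinase, was there too, with 1586 and 1473 CPM. Using the merged exons of all transcripts as the length kept 15 of the 25 highest per length.

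Promoter sequences of 3 of these highest genes are shown next to those of 2 genes without a count. MTAP has a CpG-rich promoter and lies in the stretch of chromosome 9 described below. Whether that stretch is lost or silent cannot be told from RNA counts. KRT5 is a tissue-restricted gene with a promoter poor in CpG. Each sequence is the 250 bases before the annotated start in RefSeq on GRCh38.p14, on the gene's own strand, and the authors' build was another, hg19. HSP90AA1 has more than 1 annotated start, and the downstream one is shown. Capitals mark 5 short words: TATANAA starting between -40 and -20, CCAAT on either strand starting between -150 and -40, GGGCGG and the ETS-type word CCGGAAG on either strand, and GAANNTTC, a pair of inverted heat shock units.
TMSB10 (chr2:84905406-84905655, plus strand): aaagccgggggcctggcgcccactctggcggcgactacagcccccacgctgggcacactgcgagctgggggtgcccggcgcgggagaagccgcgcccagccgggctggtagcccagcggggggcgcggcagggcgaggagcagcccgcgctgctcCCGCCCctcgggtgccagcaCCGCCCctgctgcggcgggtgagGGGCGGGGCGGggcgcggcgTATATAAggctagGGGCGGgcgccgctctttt
HSP90AA1 (chr14:102087045-102087294, minus strand): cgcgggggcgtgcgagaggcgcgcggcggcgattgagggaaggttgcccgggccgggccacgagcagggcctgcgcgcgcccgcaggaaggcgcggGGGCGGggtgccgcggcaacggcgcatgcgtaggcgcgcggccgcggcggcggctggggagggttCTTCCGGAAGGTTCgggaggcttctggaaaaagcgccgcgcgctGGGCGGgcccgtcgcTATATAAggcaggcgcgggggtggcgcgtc
HSPA8 (chr11:123062137-123062386, minus strand): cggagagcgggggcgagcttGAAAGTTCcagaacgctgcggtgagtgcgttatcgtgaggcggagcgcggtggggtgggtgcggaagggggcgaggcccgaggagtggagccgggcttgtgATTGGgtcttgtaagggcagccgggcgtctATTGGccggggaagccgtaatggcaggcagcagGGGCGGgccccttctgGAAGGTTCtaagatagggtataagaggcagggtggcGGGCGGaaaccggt
MTAP (chr9:21802386-21802635, plus strand): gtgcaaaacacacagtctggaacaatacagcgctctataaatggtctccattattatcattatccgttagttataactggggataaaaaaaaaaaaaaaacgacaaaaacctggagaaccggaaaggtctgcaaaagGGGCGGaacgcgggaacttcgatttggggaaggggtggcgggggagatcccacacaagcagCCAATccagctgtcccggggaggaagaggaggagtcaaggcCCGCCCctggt
KRT5 (chr12:52520395-52520644, minus strand): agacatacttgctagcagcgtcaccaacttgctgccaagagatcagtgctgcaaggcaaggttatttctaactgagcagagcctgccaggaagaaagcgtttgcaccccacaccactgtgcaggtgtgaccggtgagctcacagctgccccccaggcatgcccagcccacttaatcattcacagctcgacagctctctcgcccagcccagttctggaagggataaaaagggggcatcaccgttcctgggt

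The TMSB10 promoter held TATANAA at -32 and 5 matches to GGGCGG, of which the pair starting at -52 and -47 share a base. HSP90AA1 held TATANAA at -30 and GAANNTTC at -83, which shares bases with CCGGAAG, and HSPA8 held GAANNTTC at -230 and -50 and CCAAT at -129 and -99. MTAP, without a count, held CCAAT at -52 and GGGCGG at -113 and -11. KRT5, also without a count, held none of the 5 words. A match is a description of letters and not a bound site.

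Over the 10342 symbols with a single annotated start, base composition followed the level. Promoters with an observed to expected CpG ratio of at least 0.6 made up 24.5% of the 2600 genes without a count, 41.3% of those above 0 and under 1 CPM, 72.8% between 1 and 10 CPM, 89.4% between 10 and 100 CPM and 92.7% of the 1521 at 100 CPM or more, against 64.0% of all. GGGCGG was held by 30.0% of the promoters without a count and 74.2% of those at 100 CPM or more, against 56.9% of all. CCGGAAG was held by 2.73% and 21.5% of these classes, and TATANAA by 5.69% and 1.64%. Families departed from these shares. Chaperone promoters held GAANNTTC in 35.7% of 28 and TATANAA in 17.9%, against 4.86% and 2.62% of all promoters, and mitochondrial ribosomal protein promoters held CCGGAAG in 35.7% of 56 and TATANAA in none. Among 32 keratin promoters 40.6% held TATANAA and none was CpG-rich, and among 282 odorant receptor promoters 0.709% were CpG-rich and the median GC content was 36.8%, against 62.4% over all.

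The 4 genes that mark the line were all present. Vimentin (VIM), the intermediate filament of mesenchymal cells, stood at 3569 and 3576 CPM. CD44, the hyaluronan receptor carried by mesenchymal-like breast cells, had 723 and 698 CPM. The receptor tyrosine kinases MET and EGFR, which bind HGF and the EGF family, had 180.3 and 166 CPM and 119 and 101 CPM. Per length their order was 1673, 124, 26.1 and 11.2 CPM per kb, with no overlap of the libraries between neighbours.

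The receptors that define the triple-negative class were near or at 0, apart from ERBB2. ESR1, the estrogen receptor α, had 1 and 0 counts, and PGR, the progesterone receptor, 0 and 0. ESR2, the second estrogen receptor, had 13 and 14 counts (0.59 and 0.593 CPM). ERBB2 had 59.8 and 54.2 CPM and 12.5 CPM per kb. Per length its libraries overlapped with those of EGFR.

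Of 14 mesenchymal markers 12 were at or above 1 CPM, and of 23 epithelial markers 8. The caveolin CAV1 had 975 and 940.5 CPM, and MSN, which links the membrane to actin, 1375 and 1299 CPM. The mesenchymal markers below the threshold were cadherins, CDH2 (N-cadherin) with 2 and 5 counts and CDH11 with 0 and 0. ZEB1, which represses E-cadherin, was the highest of the transition factors at 149 and 138 CPM and 26.4 CPM per kb, with SNAI2 at 4.09, TWIST1 at 2.86, SNAI1 at 2.42 and ZEB2 at 1.18 CPM per kb and TWIST2 at 0 and 0 counts. On the epithelial side CDH1, E-cadherin itself, had 1 and 1 counts, and the epithelial regulators GRHL2 and OVOL1 had no count in either library. The splicing factor ESRP1 had 7 and 5 counts, and its relative ESRP2 2.31 and 2.67 CPM. The simple keratins were an exception, KRT18 with 262 and 268 CPM and KRT8 with 236 and 238 CPM. EPCAM was low but measurable at 10.4 and 12.6 CPM, and the desmosome component DSP had 68.3 and 51.3 CPM.

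Some defining genes of both epithelial lineages of the breast were at or near 0, while other markers of each were expressed. Luminal markers numbered 8 of 18 (44.4%), with the keratin pair and XBP1, a factor of the secretory pathway (82.7 and 75.8 CPM), far above FOXA1 (5.53 and 5.16 CPM) and GATA3 (2.81 and 2.54 CPM). The estrogen-responsive TFF1 and the secreted AGR2 had no count in either library. Basal markers numbered 9 of 15, about the share of all protein-coding symbols (60.2%), led by VIM and CAV1, and LAMB3, a chain of the basement membrane laminin, had 192 and 188 CPM. The basal keratins KRT5 and KRT14 had 0 counts and 1 count over both libraries, and TP63, the basal lineage factor, 1 and 0.

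**Figure D2:**
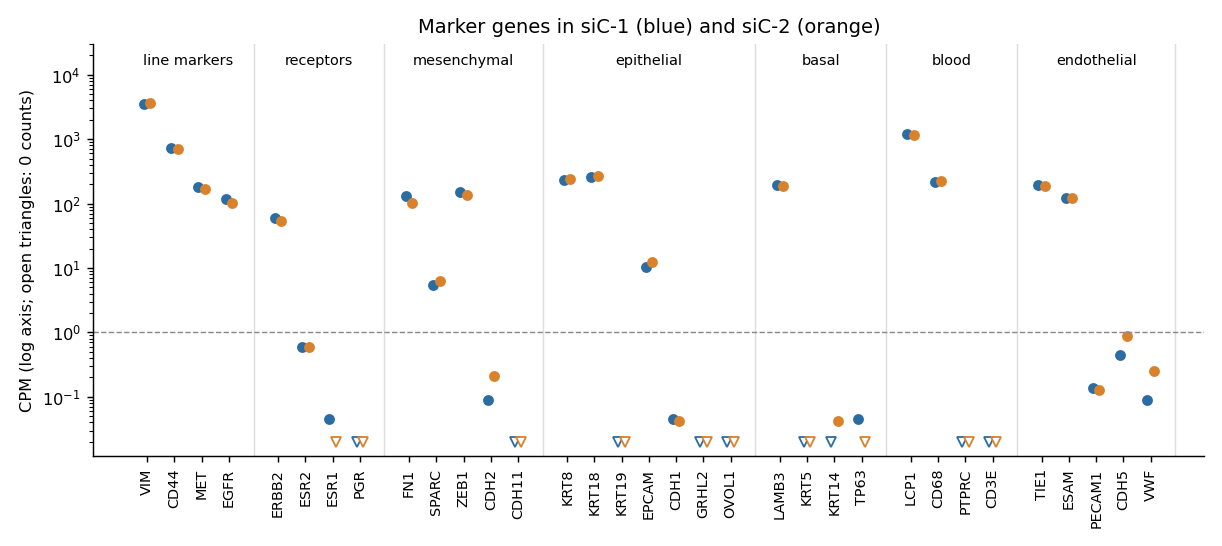
CPM of marker genes in siC-1 (blue) and siC-2 (orange) on a log axis, grouped by cell type. Open triangles are 0 counts and the dashed line is 1 CPM. VIM, CD44, KRT8, KRT18 and CD68 lie above 100 CPM, while ESR1, PGR, CDH1, KRT5 and PTPRC lie at or near 0.

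Markers of other cell types were mostly at or near 0, with a few high exceptions. Of 16 blood cell markers 2 were at or above 1 CPM, and PTPRC, the common leukocyte antigen, and CD3E, of the T cell receptor complex, had none. CD68, a lysosomal protein used as a macrophage marker, nevertheless stood at 213 and 223 CPM. Of 9 endothelial markers 3 passed: TIE1, an orphan receptor of vessels, at 191 and 190.1 CPM, ESAM, an adhesion molecule, at 123 and 122 CPM, and KDR at 1.27 and 1.02 CPM. PECAM1 had 3 and 3 counts, CDH5 10 and 21 and the TIE1 partner TEK 0 and 0. The leukocyte actin bundler LCP1, named after its value was seen, had 1193 and 1142 CPM, and RAC2, the GTPase of blood cells, 208 and 199.5 CPM. Fibroblast markers numbered 1 of 10 (COL1A1, 6.58 and 5.25 CPM), with no count for COL1A2, DCN and FAP. Neural and muscle markers numbered 3 of 13, of which TUBB3, a neuronal β-tubulin, reached 114 and 108 CPM and the neuronal splicing factor RBFOX3 10.3 and 11.8 CPM, and MITF, the melanocyte regulator, had 32.0 and 26.5 CPM with its target TYR at 0 and 0 counts. PTPRC, PECAM1, CDH5 and COL1A2 were under 1 CPM in both libraries, and CD68, TIE1, ESAM and LCP1 were above 100 CPM in both.

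ESRRA, the receptor whose mRNA the other siRNAs of the series address, had 62.5 and 64.0 CPM in the controls and 27.7 CPM per kb. The other members of the family, ESRRB and ESRRG, had no count in either library. Of its coactivators, PPRC1 stood at 26.9 CPM per kb, PPARGC1B at 1.73 and PPARGC1A, the coactivator of oxidative tissues, at 0.67. TFAM, the factor that packs mitochondrial DNA, had 249.9 and 257 CPM.

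Nuclear receptors as a family numbered 28 of 48 (58.3%), against 60.2% of all protein-coding symbols. The highest per length were NR1H2, an oxysterol receptor, with 51.4 CPM per kb, NR2C2 with 45.9 and the retinoid receptor RXRA with 31.0, and the glucocorticoid receptor NR3C1 had 165 and 162 CPM. AP-1 and ATF genes were broadly present, 19 of 20, and FOSL1 led with 224 CPM per kb, followed by ATF4, the stress factor, with 84.8 and JUN with 59.3. Other factors tied to growth were MYC with 313 and 351 CPM, FOXM1, which drives mitotic genes, with 369 and 379 CPM, and HMGA1, a chromatin architect, with 1086 and 1068 CPM. MYCN had 0 and 0 counts. All 4 TEAD genes were at or above 1 CPM, TEAD1 at 94.8 CPM per kb, and their partners YAP1 and WWTR1 had 227 and 208 and 177 and 180.3 CPM. The YAP-responsive secreted proteins CYR61 and CTGF stood at 904 and 984 and 729.8 and 749.5 CPM. NF-kB and STAT genes numbered 12 of 13, with STAT3 and RELA at 50.3 and 50.1 CPM per kb and STAT4, the lymphocyte member, at 3 and 3 counts.

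Of 37 regulators of other lineages 22 had no count, among them MYOD1 and NANOG, against 23.0% of protein-coding symbols. At or above 1 CPM were 11 (29.7%), against 60.2% of protein-coding symbols. GATA2 (35.2 and 37.8 CPM), RUNX1 (55.3 and 61.1 CPM) and NKX2-5, a cardiac factor (14.02 and 12.6 CPM), were among these 11. In the HOXA cluster none of 11 reached 1 CPM and 10 had no count, whereas HOXB had 4 of 10, led by HOXB9 with 26.8 and 26.7 CPM, HOXC 3 of 9 and HOXD 3 of 9. These counts moved with the threshold, HOXB to 2 at 2 CPM and HOXC to 5 at 0.5 CPM, while HOXA stayed at 0 at both. SOX9 had 104 and 97.5 CPM, the highest of 5 SOX genes at or above 1 CPM among 19.

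Genes of translation and protein turnover were nearly all present. Of 79 cytosolic ribosomal protein symbols 76 were at or above 1 CPM, with a median of 285 CPM, and together they took 2.44% and 2.52% of the counts. Among the 3 below the threshold were RPS27 (11 and 16 counts) and RPL21 (2 and 0), which have near-identical copies in the genome and are uncertain for that reason. RPL8 led with 1382 CPM per kb, then RPL30 with 1219. All 76 mitochondrial ribosomal protein symbols, all 37 complex I subunits, all 17 cytosolic tRNA synthetases and all 6 MCM helicase subunits were at or above 1 CPM, at medians of 72.6, 71.8, 242 and 377 CPM, against 41.7 CPM for protein-coding symbols at or above 1 CPM. The proteasome was complete apart from the testis and thymus subunits, with 38 of 40 and no count for PSMA8 and PSMB11. Among chaperones 33 of 42 passed, and the CCT ring that folds actin and tubulin stood high, with CCT7 at 618 and CCT4 at 444 CPM per kb. The stress-inducible HSPA6 and the lens chaperone CRYAB had 18 and 19 counts and none. Replication-dependent histones passed in 6 of 28 (median 0.110 CPM) and replacement histones in 8 of 13, led by H2AFZ with 359 CPM per kb. The former have mRNAs without a poly(A) tail, and no source used here says whether poly(A) RNA was selected.

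In most steps of glycolysis 1 paralogue held nearly all the RNA. Hexokinase and phosphofructokinase were split. Of hexokinase RNA per length, HK1 held 68.6% and HK2 31.2%. The phosphofructokinases PFKP, PFKM and PFKL stood at 87.3, 44.0 and 29.6 CPM per kb. Glycolysis further used ALDOA (98.6% of aldolase), PGK1 (98.1%), PGAM1 (98.9%) and ENO1 (96.1%), with the liver pyruvate kinase PKLR without a count. Lactate dehydrogenase leaned to the heart-type chain, with LDHB at 868 and LDHA at 364 CPM per kb, or 70.4% and 29.6% of the family. Glucose entry was led by SLC2A1 (234 and 259 CPM), 70.8% of the family per length, and SLC2A4, the insulin-responsive carrier, had 20 and 23 counts. Lactate carriers showed a sharper split, SLC16A3 with 165 and 169 CPM against 0.59 and 1.14 CPM for SLC16A1, and their chaperone BSG had 700.1 and 713 CPM.

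Cytochrome oxidase used the common isoforms, COX4I1 (251 and 262 CPM), COX6A1 and COX8A, while the muscle isoforms COX6A2 and COX7A1 had no count. CKB was the creatine kinase in use at 147 and 142 CPM, with CKM at 0 and 1 counts, and its mitochondrial partners CKMT1A and CKMT1B, which are near-identical copies, had no count and are uncertain. Of the ferritin chains, FTL was counted at 1640 and FTH1 at 175 CPM per kb. FTL held 82.4% per length of a group that also includes the transferrin receptor TFRC (880.4 and 897 CPM). Among 11 metallothioneins MT2A, MT1E and MT1X were at or above 1 CPM, at 224 and 243, 74.5 and 88.8 and 13.3 and 15.6 CPM. The genes encoded by the mitochondrial genome have no row in the table, and their levels cannot be given.

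Most cytoskeletal RNA came from the non-muscle members of each family. ACTB and ACTG1 held 73.2% and 26.7% of actin RNA per length, and the muscle actins ACTA1 and ACTC1 had 9 and 5 counts over both libraries. MYH9, the heavy chain of non-muscle myosin, held 84.7% of its group at 1365 and 1151 CPM, with MYH10 at 236 and 208 CPM. The embryonic muscle heavy chain MYH3 was measurable at 5.99 and 7.49 CPM, as was TPM2, a tropomyosin abundant in muscle, at 9.53 and 10.6 CPM. Of 15 intermediate filament genes outside keratins VIM took 82.8% per length, and the lamins LMNA, LMNB1 and LMNB2 followed at 126, 104 and 102 CPM per kb. Desmin (DES) and the neurofilament NEFL had 1 count and none, while nestin (NES) had 68.0 and 59.4 CPM. The small GTPases RAC1, RHOA and RHOC stood at 462, 385 and 191 CPM per kb. Kinesins passed in 31 of 42, KIF5B of cargo transport at 578 and 603 CPM and the mitotic KIF20A at 207 and 209 CPM, and the neuronal KIF1A and KIF5A had 1 count each. Annexins were led by ANXA1 (1064 and 1090 CPM) and ANXA2 (765 and 783 CPM), and S100 genes by S100A6 (614 CPM per kb) with S100A4 at 1.77 and 2.84 CPM and S100A8 and S100A9, of myeloid cells, without a count.

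Among 22 classical cadherins 3 passed, and CDH4, R-cadherin of retina and brain, was the one at a high level with 175 and 175 CPM, ahead of CDH24 (23.6 and 20.5 CPM) and CDH18 (8.84 and 8.63 CPM). The catenins that cadherins bind were nonetheless high, CTNNA1 at 562 and 537 CPM and CTNNB1 at 534 and 539 CPM, with CTNND1 low at 4.08 and 4.45 CPM. Integrins passed in 14 of 26 (53.8%), near the 60.2% of protein-coding symbols. ITGB1, the common β chain, led with 164 CPM per kb, and its partners ITGA3 and ITGA6 for laminin and ITGA5 for fibronectin stood at 72.4, 49.96 and 33.9. The leukocyte chain ITGAL and the epithelial ITGB6 had none. Laminins passed in 8 of 12 (66.7%), also near it, with the β3 chain LAMB3 at 44.1 and LAMB1 and LAMC1 at 27.5 and 19.7 CPM per kb. Collagens passed in 17 of 43, COL4A2 and COL4A1 of the basement membrane with 308 and 273 and 129 and 110.2 CPM, while the fibril-forming COL3A1 had 6 and 20 counts. Fibronectin (FN1) had 132 and 104 CPM and thrombospondin (THBS1) 283 and 263 CPM.

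Of 22 matrix metalloproteinases 6 passed. MMP14, which sits in the membrane and activates others, led with 166 and 171 CPM, and MMP1, the interstitial collagenase, had 9.12 and 12.9 CPM, one of the wider gaps between the libraries among symbols with a mean of at least 10 CPM. The gelatinases MMP2 and MMP9 had no count and 4 and 6 counts. ADAMTS6, a secreted protease, reached 351 and 375 CPM, where the next of 19 ADAMTS genes per length, ADAMTS12, had 34.7 and 35.8 CPM. The plasminogen system was present as a set, 10 of 11 with its inhibitors, with the activator PLAU at 112 and 124 CPM, its receptor PLAUR at 53.8 and 62.1 CPM and the metalloproteinase inhibitors TIMP1 and TIMP2 at 89.2 and 69.4 CPM per kb. Kallikreins, proteases of glands and prostate, passed in none of 15.

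Of 57 receptor tyrosine kinases 27 (47.4%) were at or above 1 CPM, against 60.2% of protein-coding symbols. AXL, the receptor for GAS6, stood far above the rest with 323 CPM per kb, and its neighbours in order were EPHA2 (76.1), TIE1 (49.1) and the Wnt co-receptor RYK (40.5). KIT had 0 and 0 counts, PDGFRA 2 and 0 and PDGFRB 17 and 21. Ligands for some of the receptors had transcripts in the same libraries, GAS6 at 42.3 and 41.6 CPM, the EGFR ligand HBEGF at 106 and 118 CPM and NRG1, a ligand of ERBB3, at 66.0 and 65.8 CPM, whereas HGF, the ligand of MET, and the growth factors IGF1 and IGF2 had no count. Of 22 FGF ligands FGF5 (29.6 and 28.4 CPM), FGF1 (14.02 and 14.8 CPM) and FGF13 (2.45 and 2.84 CPM) passed. NRAS and HRAS, small GTPases of growth signalling, had 333 and 342 CPM and 69.3 and 70.1 CPM. The kinases AKT1 and AKT2 had 208 and 206 and 203 and 218 CPM.

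Wnt ligands passed in 6 of 19, with WNT5B at 50.5 and 48.7 CPM and the others under 10 CPM. Of 22 frizzled receptors, co-receptors and antagonists 13 passed, with FZD2 at 104 and 96.8 CPM and FZD6 at 151 and 162 CPM, and DKK1, a secreted Wnt antagonist, had 194 and 206 CPM. The TGF-β axis had TGFB1 at 82.7 and 81.7 CPM and TGFB2 at 36.8 and 34.7 CPM among 10 of 33 ligands, and TGFBR2 led 11 of 14 receptors with 95.4 CPM per kb against 4.43 for its partner TGFBR1. NOTCH2 was the main Notch receptor (242 and 215 CPM, NOTCH1 56.6 and 45.3 CPM), with the ligands JAG1 and JAG2 at 7.48 and 7.96 and 5.58 and 4.74 CPM and DLL3 at 0 and 1 counts. The Hedgehog ligands SHH and DHH and the transducer SMO had no count, although the downstream factor GLI3 had 39.4 and 32.0 CPM. Of G protein-coupled receptors ADORA2B, for adenosine, had 108 and 120.4 CPM, F2RL1, a protease-activated receptor, 69.9 and 72.9 CPM, and receptors for amine transmitters passed in 6 of 31.

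Secreted immune signals were sparse. Interleukins and colony-stimulating factors passed in 13 of 47, LIF with 42.2 and 51.4 CPM, CSF1 with 36.8 and 38.3 CPM, IL11, a factor known from bone metastasis, with 12.9 and 18.1 CPM and IL8 with 9.89 and 14.1 CPM. IL6 had 13 and 32 counts, under 1 CPM in siC-1 and above it in siC-2. Chemokines passed in 3 of 42, CXCL1 with 6.53 and 9.69 CPM, CXCL2 with 1.23 and 1.61 and CXCL3 with 1.18 and 1.91, and of 19 chemokine receptors CXCR4 alone did, with 6.35 and 4.23 CPM. Receptors for cytokines passed in 24 of 41 (58.5%), near the 60.2% of protein-coding symbols, led by TNFRSF1A (47.5 CPM per kb) and IFNGR1 (25.7), and IL6ST, the shared chain for IL6, IL11 and LIF, had 164 and 164 CPM. Class I antigen presentation was expressed, B2M with 553 and 576 CPM and HLA-B and HLA-C with 130.5 and 128 CPM and 78.1 and 78.1 CPM, symbols whose reads are hard to assign because of their variation. The class II gene HLA-DRA and its activator CIITA had no count. The RNA sensor DDX58 had 134 and 137 CPM and the DNA sensor pair MB21D1 and TMEM173 54.3 and 58.0 and 48.4 and 51.3 CPM.

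Of the cyclins of the A, B, D and E types, cyclin B1 (CCNB1) was the highest with 213 CPM per kb (442 and 483 CPM), followed by cyclin D1 (CCND1) with 125 CPM per kb (543 and 531 CPM). CCNB2, CCNA2 and CCND3 came next with 76.9, 64.2 and 53.7 CPM per kb. Far lower were CCNE1 with 10.1, CCND2 with 0.742 and CCNB3 with 0.201 CPM per kb. The replication helicase subunit MCM3 had 629 and 659 CPM. The survival gene BCL2L1 led the BCL2 family with 278 CPM per kb, and the death effector BAX and the survival gene MCL1 followed with 126 and 124. Among 13 tumour suppressors 11 were at or above 1 CPM, RB1 with 236 and 220.1 CPM and BRCA1 with 64.6 and 61.0 CPM. CDH1 and CDKN2A were the other two. Of the CDK inhibitors CDKN1A and CDKN1B had 29.1 and 32.4 and 64.9 and 64.4 CPM, and CDKN2A, which encodes the inhibitor of CDK4, and its neighbour CDKN2B had no count.

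CDKN2A lay in a stretch of chromosome 9 with 1 count in all. Between KIAA1797 (now FOCAD, 1.95 and 2.03 CPM) and TUSC1 (11.1 and 12.1 CPM) the RefSeq order has 23 protein-coding genes with a symbol in the table, from PTPLAD2 to ELAVL2. Of these, 22 had no count, and KLHL9, a ubiquitin ligase adaptor, had 0 and 1. In the other 6 libraries, with 138965825 counts, the stretch had 1 count in all. It holds 16 interferon genes, which are silent in most resting cells, but also MTAP, the phosphorylase of methylthioadenosine used in most tissues, with 0 and 0 counts. The antisense RNA CDKN2B-AS1 had 0 and 0 counts. Of the genes further out, MLLT3 had 19.2 and 17.5 CPM and RPS6 698 and 709 CPM on one side, and C9orf82 had 57.9 and 60.3 CPM and PLAA 97.2 and 104 CPM on the other. Not all of them were transcribed at such levels, since SLC24A2, between RPS6 and MLLT3, had 0 and 1 counts and LRRC19, beyond PLAA, 4 and 10. A lost segment and a silent one cannot be told apart from RNA counts.

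**Figure D3:**
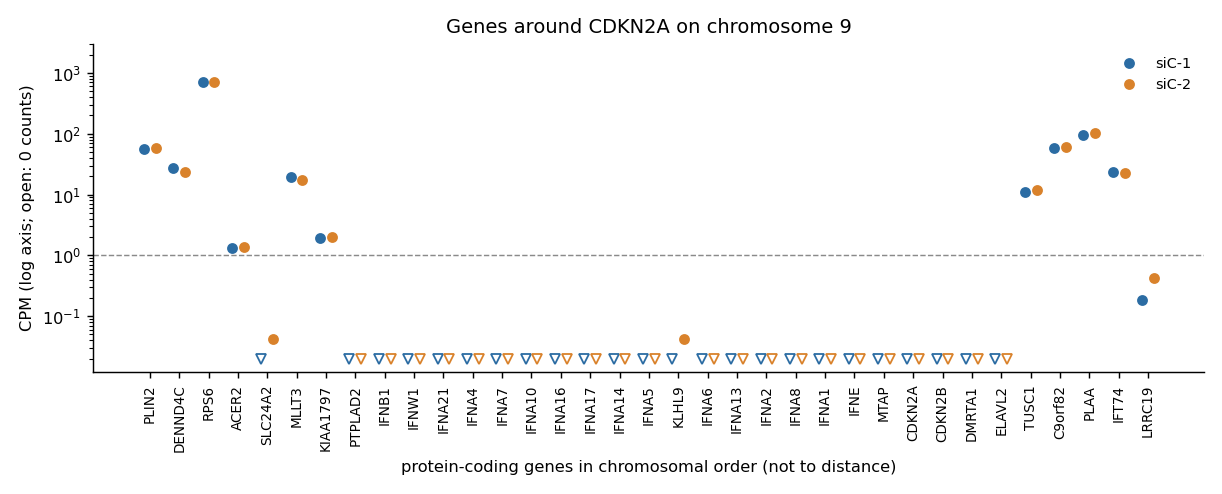
CPM in siC-1 (blue) and siC-2 (orange) of protein-coding genes around CDKN2A, in their order along chromosome 9, on a log axis with open triangles for 0 counts. The 23 genes from PTPLAD2 to ELAVL2 hold 1 count in all, in KLHL9, while RPS6 on the left reaches 698 and 709 CPM and PLAA on the right 97.2 and 104 CPM.

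Longer stretches with few or no counts existed. In all, 37 runs of at least 10 neighbouring protein-coding genes with no more than 1 count each held 704 genes. The longest had 61 genes on chromosome 11, from OR4B1 to APLNR, and 55 of them were odorant receptors. The second, on chromosome 1 from CRNN to S100A7, had 44 genes of the skin barrier region. Others were 35 genes on chromosome 21, of which 33 were keratin-associated, 34 genes on chromosome 8 from XKR5 to DEFB4A, in the defensin region, and 29 genes on chromosome 4 from TMPRSS11E to AMBN. The stretch around CDKN2A was the ninth by number of genes.

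Families that serve particular tissues were empty or nearly so. None of 393 odorant receptors reached 1 CPM and 369 had no count, against 30.0% of all symbols. The same held for 88 keratin-associated proteins of hair (80 without a count), 38 β-defensins (all without a count), 27 taste receptors, 14 lens crystallins, 14 mucins and 10 haemoglobin chains, where HBE1 was the highest with 18 and 21 counts. MUC1, the mucin of breast epithelium, came nearest with 24 and 19 counts, above 1 CPM in siC-1 and under it in siC-2, so that 1 of 14 mucins passed in siC-1 alone. All 19 UDP-glucuronosyltransferases were at 0, but 9 of them are UGT1A symbols that share exons, so that their zeros are uncertain. Keratins passed in 7 of 55, KRT80 (52.9 and 58.5 CPM), KRT10 (26.4 and 24.7 CPM) and KRT7 (8.94 and 9.27 CPM) after the simple pair. Of 23 claudins CLDN12 was the highest with 81.3 and 72.4 CPM. Cancer-testis families were mostly under 1 CPM, with 3 of 24 in MAGE families A to C (MAGEA3 at 5.67 and 5.67 CPM, in a set of near-identical copies), and in the group of GAGE, XAGE, PAGE, SSX and CTAG symbols the 1 that passed, SSX2IP (61.0 and 60.7 CPM), encodes a partner of an SSX protein and is no SSX gene. Duplicated symbols in these families, such as GAGE12B and GAGE12C or the defensins DEFB103A and DEFB103B, have uncertain zeros.

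Other families were present in larger part. Numbered zinc finger (ZNF) symbols passed in 397 of 485 (81.9%), against 60.2% of protein-coding symbols, but at a low median of 7.53 CPM and with 11 at or above 100 CPM. ZNF622 was the highest per length with 71.9 CPM per kb. Mitochondrial carriers of the SLC25 family passed in 37 of 45, with the phosphate carrier SLC25A3 at 580.2 CPM per kb and the nucleotide carrier SLC25A5 at 381. Solute carriers as a whole passed in 173 of 331 (52.3%), against the same 60.2%. The glutamine carrier SLC1A5 had 288 and 306 CPM, SLC38A2, another carrier of neutral amino acids, 513 and 534 CPM and the nucleoside carrier SLC29A1 231 and 224 CPM.

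**Figure D4:**
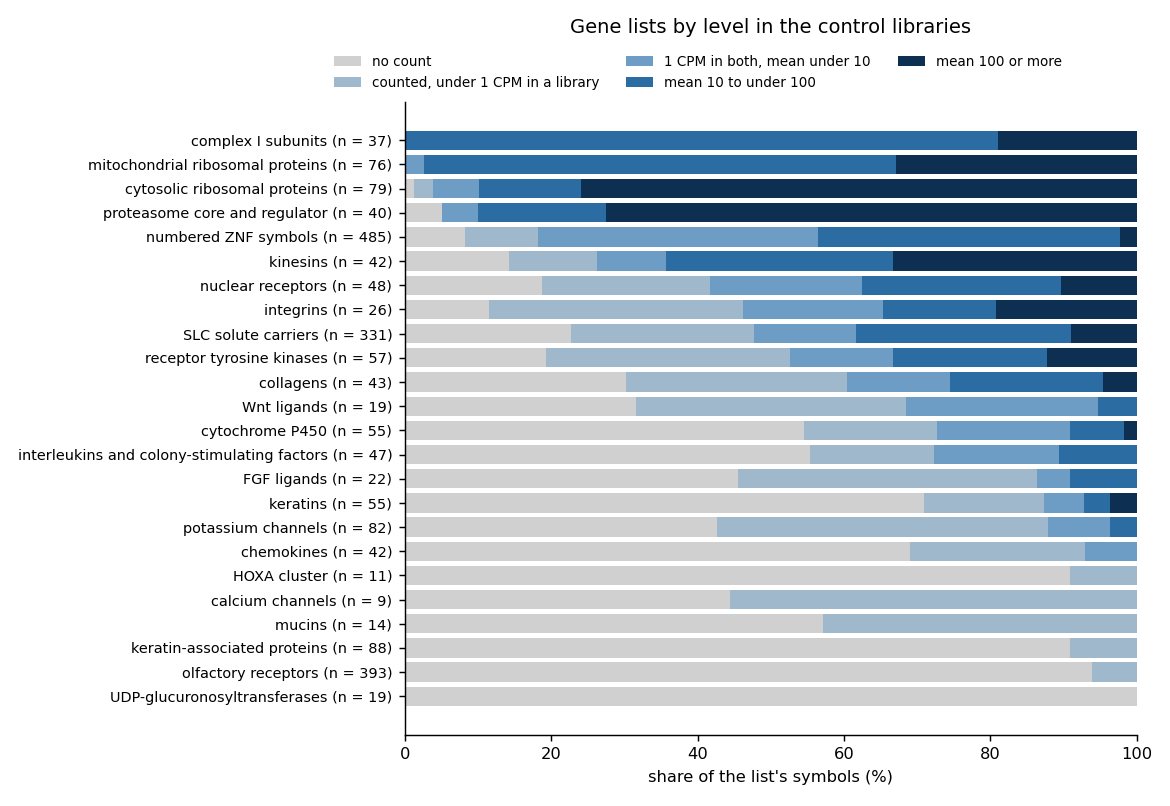
Share of the symbols of 24 gene lists in 5 level classes, from no count (light grey) to a mean of 100 CPM or more (darkest blue), with the number of symbols in brackets. All complex I and mitochondrial ribosomal protein symbols pass 1 CPM, 397 of 485 numbered ZNF symbols do, and no symbol of the 6 lists at the bottom does.

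Ion channels were few. Potassium channels passed in 10 of 82, KCNQ5 with 89.5 and 88.2 CPM and KCNN4, a calcium-activated channel, with 24.6 and 24.5 CPM, and sodium channels in 2 of 10, with SCN9A at 1.63 and 1.44 CPM. None of 9 voltage-gated calcium channels passed. TRPM7, a channel fused to a kinase, had 80.2 and 81.4 CPM. In the group of transmitter-gated channels 5 of 64 passed, and CHRNB1, the β chain of the muscle acetylcholine receptor, had 129 and 135 CPM. Gap junction genes were led by GJA1, a widespread connexin, with 62.8 and 63.5 CPM, and its epithelial relatives GJB2 and GJB1 had 1.497 and 1.14 CPM and no count.

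Among detoxification genes the cytochromes P450 passed in 15 of 55 (27.3%), against 60.2% of protein-coding symbols, led by CYP51A1 of cholesterol synthesis with 118 and 120.4 CPM. The xenobiotic enzymes CYP3A5 and CYP2E1 had 4 counts and 1 count over both libraries. Glutathione transferases passed in 13 of 22 (59.1%), near that share, with GSTP1 at 233, MGST1 at 194 and GSTO1 at 126 CPM per kb and GSTT1 at 0 and 0 counts. Aldehyde dehydrogenases passed in 12 of 18. ALDH1A3 had 24.9 and 25.3 CPM and ALDH1A1, a marker used for breast stem-like cells, 0 and 0 counts. ABC transporters passed in 23 of 46 (50%), with the drug exporters ABCC1 and ABCC4 at 134 and 118 and 121 and 118 CPM.

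Short noncoding RNA was thinly covered, where 51.2% of all symbols passed and 30.0% had no count. Of 1216 microRNA symbols 4 passed and 1092 had no count, and of 368 small nucleolar RNA symbols 23 passed (6.25%). No source used here says whether such short RNAs were retained. All 13 snoRNA host genes passed, SNHG5 at 117 and 127 CPM, SNHG1 at 91.2 and 102 CPM and GAS5 at 23.3 and 28.0 CPM. LINC and antisense symbols passed in 48 of 284 (16.9%). Of 17 named long noncoding RNAs 11 passed (64.7%). Among them were TUG1 with 188 and 199.6 CPM, NEAT1 with 83.7 and 108 CPM, MALAT1 with 58.4 and 70.0 CPM and UCA1 with 45.8 and 40.7 CPM. H19 had 11 and 2 counts, and HOTAIR and MEG3 had none.

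The 2 libraries gave the same picture of these levels. At a mean of at least 10 CPM, 0 of 9364 symbols (0%) differed by 2-fold or more. The SD of log2 of siC-2 over siC-1 was 0.302 between 1 and 10 CPM, 0.121 between 10 and 100, 0.0779 between 100 and 1000 and 0.0625 above, where counting alone would give 0.257, 0.0799, 0.0325 and 0.0110. The spread was thus near that of counting for low genes and well above it for high genes. BANP, a nuclear matrix protein, was the 1 symbol past 1.5-fold, at 14.4 and 8.25 CPM, 1.75-fold higher in siC-1 with a 95% interval of 1.46 to 2.10 from the counts (exact binomial, counting error only). The next were HSPG2, the matrix proteoglycan perlecan, 1.49-fold higher in siC-1 (1.34 to 1.64) and ALDH6A1, 1.43-fold (1.21 to 1.70). In the other direction TNFAIP3, an inhibitor of NF-kB, was 1.49-fold higher in siC-2 (1.25 to 1.78), the kinases CLK4 and CLK1 1.49-fold (1.27 to 1.74) and 1.41-fold (1.31 to 1.52), IL8 1.43-fold (1.20 to 1.70), MMP1 1.41-fold (1.18 to 1.70) and IL11 1.41-fold (1.21 to 1.64).

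The ratio between the libraries also moved with transcript length. Its median log2 value was 0.03 for 394 symbols with a principal transcript under 1000 bases and -0.07 for 737 symbols of 8000 bases or more, of which 72.9% were lower in siC-2. Across 9238 genes of these 2 libraries Spearman's rho with length was -0.25. Integrins (median -0.11, 8 of 9 lower in siC-2) and receptor tyrosine kinases (median -0.10, 14 of 19 lower) had medians below 0. Other lists lay the other way, snoRNA host genes (median 0.15, 7 of 8 higher in siC-2), named long noncoding RNAs (median 0.14, 7 of 8), the proteasome (median 0.04, 33 of 36) and cytosolic ribosomal proteins (median 0.04, 62 of 71). These counts are over members whose mean reached 10 CPM, and the part of length in these differences was not tested.

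**Figure D5:**
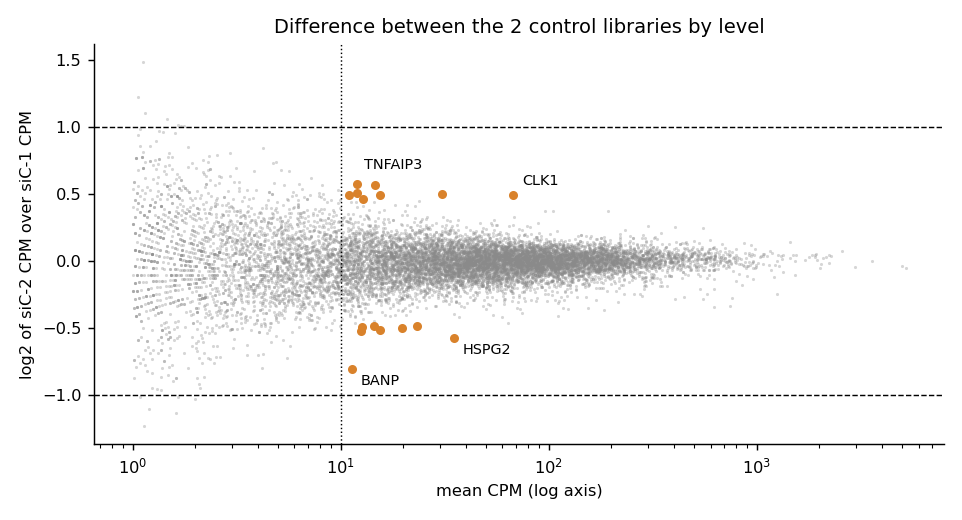
Log2 of the siC-2 CPM over the siC-1 CPM against the mean CPM (log axis) for symbols with a mean of at least 1 CPM. Dashed lines mark a 2-fold difference, the dotted line 10 CPM and orange points the 8 largest differences in each direction at or above it. To the right of the dotted line no symbol lies outside the dashed lines.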

How the data were processed

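RNA of the 8 libraries was prepared with RNeasy and made into Illumina libraries, per the labels' protocols. The deposited table holds raw read counts per gene symbol, 1 column per library. TopHat (version 1.3.3), hg19, HTSeq and DESeq appear in the processing notes of the submitters, with no further settings. For annotation, strand setting and shared reads the processing is not given in the sources used. From the 2 control columns, CPM was computed over all 23368 symbols without further scaling, and CPM per kb from the principal transcript in GENCODE v29 (GRCh38), matched for 21660 symbols. Promoters came from RefSeq (GRCh38.p14). Some genes are not reported here. No contrast between conditions and no test was run, since the question is one of level. Intervals are exact binomial at 95% and cover counting error only. Named genes are the given markers and defining receptors, the 25 highest by each scale, in each of 149 lists the highest members per length and those whose absence or presence defines a tissue, and the 8 largest folds in each direction between the libraries. The members and lists were chosen with earlier results of these data known. The alternatives used TMM (edgeR 4.0.16) and DESeq2 1.42.0 size factors, other thresholds, other lengths and each library alone. Computation used Python 3.11.15, pandas 2.3.3, numpy 2.4.6, scipy 1.17.1, matplotlib 3.10.9 and R 4.3.3, and the level calculation was tested on simulated counts.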

Additional observations from a re-analysis of the deposited data

How the results depend on the processing

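The number of symbols at or above 1 CPM in both libraries, 11974, was the same with TMM and DESeq2 size factors, and it lay between 10753 (1 CPM per kb) and 12617 (0.5 CPM) over the 8 alternatives run. Each library alone gave 12071 to 12127 such symbols, 7632 to 7744 symbols without a count and a share of 12.79 to 12.8% for the 100 highest symbols. A limit of 3 counts over both libraries in place of 0 gave 8760 symbols in place of 7020. The median level of expressed genes per length moved with the length used, from 11.97 CPM per kb of principal transcript to 7.62 CPM per kb of merged exons, so that levels per length hold for the principal transcript only. A fold of 1.5 in place of 2 between the libraries gave 1 symbol in place of 0. Of 149 lists, 13 changed their number of members by more than 1.5-fold at 0.5 CPM and 13 at 2 CPM, and 1, the mucins (0 to 1), did so without siC-2. No paired analysis was possible because the results are levels within 1 group and come from no test.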

Other observations

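Outside the lists above, NT5E was picked after its value was seen. This surface enzyme, which makes adenosine, stood at 935 and 916 CPM beside the adenosine receptor ADORA2B at 108 and 120.4 CPM. LGALS1, a galectin that binds cell surface sugars and 1 of the 25 highest symbols per length, reached 927 CPM per kb.

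Several other runs of neighbouring genes with few or no counts held families of single tissues. A run of 24 genes on chromosome 1, from AADACL4 to PDPN, held mainly PRAME family symbols, a run of 20 on chromosome 12, from KRT85 to KRT78, was made of keratins, and a run of 16 on chromosome 19, from GPR32 to KLK13, held kallikreins. Not all runs were of this sort. A run of 16 on chromosome 6, from HIST1H2BE to HIST1H2BI, held replication-dependent histone genes, whose mRNAs lack a poly(A) tail. The pseudoautosomal symbols formed a run of 16 from PLCXD1 to XG, in which the zeros are uncertain for the reason given above.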
